A study of Mus musculus with 21 samples.

Results

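Mouse embryonic fibroblasts that carried the RTEL1 double mutant C1252A/C1255A were compared with cells of the same floxed genotype without it, before any Cre was given. The members were chosen by sample label. They are the 3 libraries of Rtel1 F/F;pBabe Rtel1 C1252A/C1255A cells infected with an adenovirus for GFP and the 3 libraries of Rtel1 F/F cells infected with the same virus, 6 of the 21 libraries in the 7 groups of the series. Both floxed Rtel1 alleles are present in all 6 libraries, so the mutant was expressed on top of the cells' own RTEL1. The mutant was delivered in pBabe, a retroviral vector whose expression is constitutive, and RNA was taken 96 hours after infection with the adenovirus. The cells are called mutant +GFP and parental +GFP in what follows, and the same lines given Cre adenovirus, in which the floxed alleles are deleted, are called mutant +Cre and parental +Cre. Parental is a name only, as the paper lists the lines under different earlier studies and does not say that 1 came from the other. The remaining groups are Rtel1 F/F cells given GFP virus and the ligand TMPyP4 (10 µM, 48 hours) and Terf1 F/F cells given GFP or Cre virus. None of the 6 libraries compared received TMPyP4. The mutant is represented by 1 line and the samples hold no line with an empty vector. The mutant itself, the vector, the transduction and the origin and later history of the line therefore cannot be told apart. The labels call the replicates biological but do not say that they came from separate cultures or embryos. P-values measure only the spread between libraries within groups, estimated over all 21 libraries of the series.

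RTEL1 is an iron-sulfur helicase that unwinds telomeric loops and G-quadruplexes, the stacked structures that guanine-rich DNA can form. Its C-terminal C4C4 RING domain binds TRF2, the shelterin protein that folds the chromosome end into the loop and recruits RTEL1 in S phase to open it. Both cysteine changes, C1252A and C1255A, fall in that domain and disrupt the contact. The question of the comparison is how the transcriptome differs when this RTEL1 is present together with the wild-type protein.

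Total counts lay between 38108060 and 47906610 in the mutant libraries and between 43732660 and 47300825 in the parental libraries, and 14786 to 15189 genes had a count in each. Levels are given as CPM, the share of a library's counts after TMM scaling, which allows comparison of 1 gene between libraries but not of different genes. The 10 fibroblast markers were all measured, and their summed level was 8484 to 12340 CPM in mutant +GFP and 19190 to 21140 CPM in parental +GFP cells. The sums of markers for endothelium, skeletal muscle and fat were below 1 CPM in every library of both groups, with Emcn, Myod1, Myog and Plin1 at 0. The macrophage and leukocyte list summed to 8.47 to 9.86 CPM in mutant and 6.75 to 7.09 CPM in parental libraries, with Adgre1 at 0 and 1 of 3 tested members, Cd14, called higher. The epithelial list summed to 1.95 to 2.33 CPM against 2.34 to 2.90 CPM, with Epcam called higher and Cdh1 lower of 3 tested members. Higher sums were found for the neural list, almost all of it Nes, with sums of 343 to 417 CPM in mutant and 236 to 334 CPM in parental libraries, and the cartilage and bone list, almost all of it Col2a1, with 11.6 to 16.0 CPM against 89.0 to 123 CPM. The part of such cells in the results was not tested. In bulk RNA, fewer cells of a type and less RNA per cell cannot be told apart.

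Rtel1 itself was the first check of the labels. It was counted at 338, 328 and 331 CPM in the mutant +GFP libraries and at 66.2, 59.1 and 60.2 CPM in the parental +GFP libraries. Every mutant library was far above every parental one. The difference was 2.43 ± 0.081 (log2 fold change ± SE, edgeR quasi-likelihood test, Benjamini-Hochberg adjusted p = 5.16e-13), or 5.37-fold. Per transcript length, the authors' TPM averaged 136 in mutant and 29.4 in parental cells. In +Cre cells Rtel1 was 265 ± 16.3 CPM with the mutant and 29.5 ± 2.56 CPM without it (SD, n = 3 each). The counts do not separate mutant transcripts from those of the floxed alleles, nor deleted from intact transcripts.

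The genes next to Rtel1 did not share its size of change. Of 8 neighbours within 100 kb on chromosome 2, 7 were tested and 3 were called, with Stmn3 below the filter. Among all genes tested, 44.7% were called. Arfrp1 rose by 0.64 on the log2 scale, from 18.4 to 19.5 CPM in parental to 27.0 to 33.0 CPM in mutant libraries. Helz2 fell by 1.14 and Zbtb46 fell by 0.64. Lime1, Slc2a4rg-ps, Zgpat and Gmeb2 had log2 fold changes of 0.20, 0.21, 0.04 and -0.11 and did not pass the test.

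RTEL1's partner at the telomere overlapped between the groups. Terf2, which encodes TRF2, was counted at 37.4, 37.1 and 41.1 CPM with the mutant and at 37.1, 38.1 and 37.4 CPM without it, and neither group stood above the other (log2 fold change 0.04, edgeR adjusted p = 0.731). Terf1, which encodes the shelterin protein TRF1, was slightly higher at 34.8, 36.9 and 33.3 CPM against 28.7, 28.9 and 27.3 CPM (log2 fold change 0.31, edgeR adjusted p = 0.00547). That call was lost in 7 of 13 alternatives, and after correction for GC content the difference was 0.04 (edgeR adjusted p = 0.705, with a range of 8.62e-05 to 0.705 over the alternatives). Pcna, which encodes the replication clamp that RTEL1 also binds, had a log2 fold change of 0.18 (edgeR adjusted p = 0.109), and Actb had one of -0.02 (edgeR adjusted p = 0.944).

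The change across the transcriptome was broad. Of 13719 genes tested, 6138 passed the threshold of 0.01 on the adjusted p (they are the called genes below), which is 44.7% of all genes tested. Of these, 3105 were higher in mutant cells (22.6%) and 3033 were lower (22.1%). The rises were smaller than the falls, with a median log2 fold change of 0.57 among genes called higher and of -0.86 among genes called lower, while the median over all tested genes was -0.03. At least a doubling was seen for 545 genes and at least a halving for 1304, and changes of 3 or more on the log2 scale for 62 and 172. In 8725 genes (63.6%) the lowest library of 1 group lay above the highest of the other, and 6099 of the called genes were among them.

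**Figure D1:**
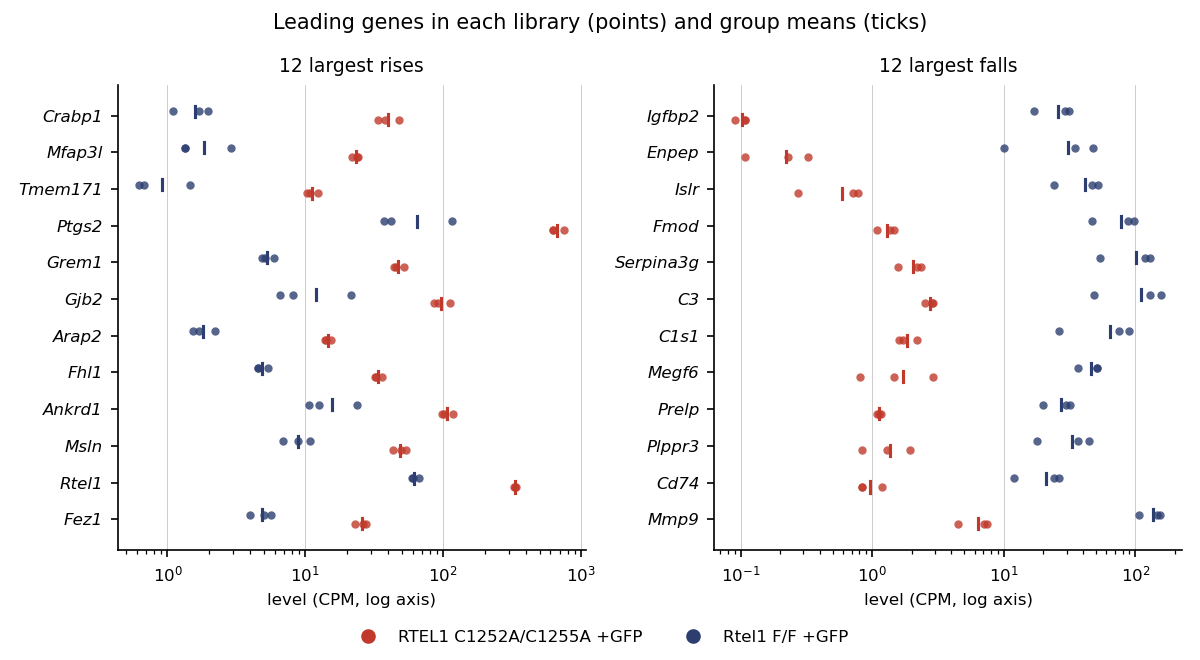
Level of the 12 genes with the largest rise (left) and the 12 with the largest fall (right), in CPM on a log axis. Each point is 1 library, red for mutant +GFP and blue for parental +GFP, and ticks are group means of 3. The 24 genes were chosen among those whose groups do not overlap, so the colours are apart by construction. Parental replicate 1 is often the blue point nearest to the red ones.

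The largest rise among genes of at least 5 CPM was in Crabp1, which encodes a cytosolic carrier of retinoic acid. It was counted at 47.9, 33.5 and 37.6 CPM in mutant and at 1.96, 1.09 and 1.68 CPM in parental libraries (log2 fold change 4.66 ± 0.158, edgeR adjusted p = 5.16e-13). The lowest mutant library was many times above the highest parental one. Grem1, a secreted antagonist of BMP ligands, stood at 51.9, 43.9 and 45.8 CPM against 5.96, 5.10 and 4.85 CPM (log2 fold change 3.15 ± 0.108, edgeR adjusted p = 5.16e-13). Fhl1, a LIM-domain protein of the cytoskeleton, stood at 31.9, 35.8 and 32.4 CPM against 5.36, 4.54 and 4.55 CPM (log2 fold change 2.79 ± 0.0795, edgeR adjusted p = 1.07e-13). In both genes the libraries of a group lay close together.

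Other rises were less even. Ptgs2, the inducible cyclooxygenase, was counted at 622, 621 and 755 CPM in mutant libraries and at 116, 37.2 and 41.6 CPM in parental libraries. Gjb2, a connexin of gap junctions, was counted at 86.2, 112 and 91.8 CPM against 21.4, 6.54 and 8.17 CPM. In both genes parental replicate 1 was the highest parental library, well above the other two, yet still below every mutant library. Ankrd1, a YAP and TAZ target, followed the same order with 97.8, 102 and 117 CPM against 23.7, 10.6 and 12.7 CPM. The log2 fold changes of Ptgs2, Gjb2 and Ankrd1 were 3.36, 3.01 and 2.76. The remaining members were Mfap3l at 3.66, Tmem171 at 3.62, Arap2 at 2.997, the mesothelial surface protein Msln at 2.47 and Fez1 at 2.39 on the same scale, and Rtel1.

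The largest falls reached further. Igfbp2, an insulin-like growth factor binding protein, was counted at 0.108, 0.108 and 0.0914 CPM in mutant and at 16.9, 31.5 and 29.3 CPM in parental libraries (log2 fold change -7.94 ± 0.508, edgeR adjusted p = 2.66e-09). The gene was close to undetected with the mutant. Enpep, the surface peptidase that trims angiotensin II, was counted at 0.108, 0.326 and 0.228 CPM against 10.04, 47.7 and 34.96 CPM (log2 fold change -7.16). Fmod, the collagen-binding proteoglycan fibromodulin, was counted at 1.46, 1.36 and 1.10 CPM against 46.7, 97.6 and 88.0 CPM (log2 fold change -5.89 ± 0.250, edgeR adjusted p = 7.78e-12). Parental replicate 1 was again the parental library nearest to the mutant ones.

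Complement genes were among these falls. C3, the central complement component, stood at 2.498, 2.88 and 2.83 CPM against 48.1, 156 and 130 CPM, and C1s1, the complement protease C1s, at 1.70, 1.60 and 2.17 CPM against 26.5, 90.1 and 75.3 CPM. Their log2 fold changes were -5.34 and -5.13. Mmp9, a gelatinase, was counted at 7.41, 4.48 and 7.13 CPM against 106, 153 and 146 CPM (log2 fold change -4.41). Islr, Serpina3g, Megf6, Prelp, Plppr3 and Cd74, the invariant chain of MHC class II, had log2 fold changes of -6.10, -5.63, -4.71, -4.59, -4.58 and -4.44. Serpina3g and C1s1 have near-identical copies beside them in the mouse genome, and how the authors' counting split their reads is uncertain.

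Because RTEL1 acts on guanine-rich DNA, the promoters of the leading genes were read for a G-quadruplex-forming pattern, which was 4 runs of GGG or longer separated by 1 to 7 bases of any kind, on either strand. RefSeq promoters of 300 bases (250 before and 50 after the start, build GRCm38.p6) were found for 20 of the 24 leading genes, of which 8 held the pattern, 5 of 10 among the rises and 3 of 10 among the falls. Rtel1 is 1 of those 5 rises, and its counts do not separate transcripts of the vector from those of this promoter. Of all 32851 promoters in the table, 10.5% held it on the sense strand, 9.35% on the antisense strand and 18.6% on either. Those shares are per promoter, whereas a gene was counted if any of its promoters held the pattern. Counted per gene, 31.7% of the 10837 tested genes with a promoter held it on either strand. Promoters of a pair of rising and a pair of falling genes are shown because they hold the pattern in genes that moved in opposite directions. Capitals mark it, and a run of CCC marks the antisense strand.
Grem1 (higher with the mutant, minus strand, chr2:113758599-113758898): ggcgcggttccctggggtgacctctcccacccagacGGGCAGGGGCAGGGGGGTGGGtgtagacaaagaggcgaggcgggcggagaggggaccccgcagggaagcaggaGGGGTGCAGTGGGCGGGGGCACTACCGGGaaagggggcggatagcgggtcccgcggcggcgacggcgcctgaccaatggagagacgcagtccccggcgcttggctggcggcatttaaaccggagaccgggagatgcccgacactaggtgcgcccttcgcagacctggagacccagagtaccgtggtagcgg
Gjb2 (higher with the mutant, minus strand, chr14:57104653-57104952): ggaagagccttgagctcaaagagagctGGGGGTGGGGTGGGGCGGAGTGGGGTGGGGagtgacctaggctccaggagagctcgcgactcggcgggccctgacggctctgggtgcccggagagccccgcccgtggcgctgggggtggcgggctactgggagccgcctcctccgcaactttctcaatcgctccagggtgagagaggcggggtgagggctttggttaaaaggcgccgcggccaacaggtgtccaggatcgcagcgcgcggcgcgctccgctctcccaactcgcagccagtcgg
Igfbp2 (lower with the mutant, plus strand, chr1:72824230-72824529): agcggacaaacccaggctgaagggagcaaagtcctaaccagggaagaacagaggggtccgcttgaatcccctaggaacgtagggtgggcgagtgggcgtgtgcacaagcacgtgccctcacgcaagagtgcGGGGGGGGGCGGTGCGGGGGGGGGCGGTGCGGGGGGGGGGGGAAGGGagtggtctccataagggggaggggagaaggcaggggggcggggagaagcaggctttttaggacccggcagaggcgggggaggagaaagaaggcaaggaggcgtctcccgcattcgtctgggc
Prelp (lower with the mutant, minus strand, chr1:133921352-133921651): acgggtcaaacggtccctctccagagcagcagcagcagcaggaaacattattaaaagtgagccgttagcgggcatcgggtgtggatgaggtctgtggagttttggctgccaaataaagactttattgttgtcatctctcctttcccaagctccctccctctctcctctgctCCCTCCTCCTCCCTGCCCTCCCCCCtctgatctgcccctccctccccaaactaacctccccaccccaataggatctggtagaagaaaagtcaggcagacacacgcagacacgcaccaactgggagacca

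The pattern was thus present on both sides of the comparison. Across all tested genes with a promoter in the table, 31.7% of 10837 held it on either strand, against 28.0% of 2500 genes called higher and 37.0% of 2374 genes called lower. These shares are a description of letters in a window. Base composition moved with them and its part was not tested, as the transcripts of genes called lower had a median GC content of 52.1% and those of genes called higher of 46.5%, with 49.7% over all tested genes.

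Direction and GC content moved together across the whole range. In the fifth of genes with the lowest GC content (median 41.3%), 35.4% of genes were called higher and 12.3% lower, and the median log2 fold change was 0.20. In the fifth with the highest GC content (median 57.9%), 5.32% were called higher and 28.7% lower, and the median was -0.48. In +Cre cells the same medians were 0.02 and -0.07. The part of GC content in the calls below was tested only as a correction of the fit, under which 6842 genes were called. Under it 29 in place of 30 interferon-stimulated genes, 15 as before of the collagens and 18 as before of the matrix glycoproteins were called lower.

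**Figure D2:**
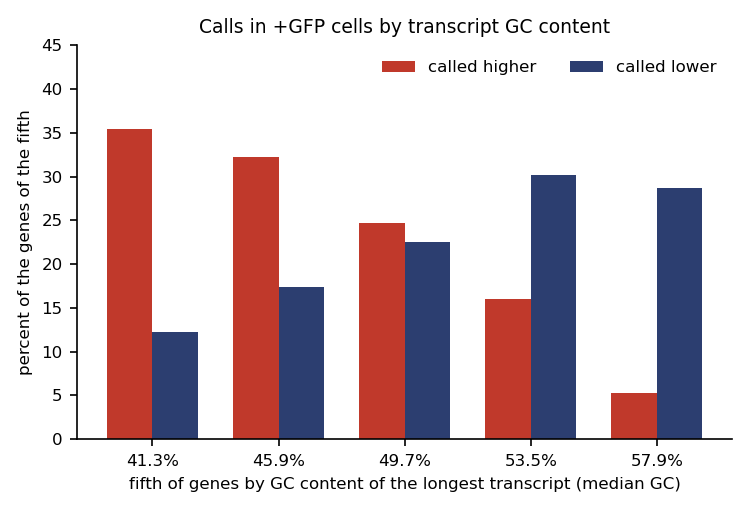
Share of genes called higher (red) and lower (blue) with the mutant in +GFP cells, in percent, in 5 classes of 2725 genes ordered by transcript GC content (class medians on the horizontal axis). The red bars fall from 35.4% to 5.32%, and the blue bars are at 12.3% in the first class and 28.7% in the last.

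Genes that interferons induce were lower as a group. Of 37 tested members, 30 were called lower and 0 higher, against 22.1% lower among all genes, and the list's median log2 fold change was -1.51. Their summed level was 378, 355 and 391 CPM in mutant and 789, 771 and 796 CPM in parental libraries, so the groups were well apart. Irf7, the transcription factor that amplifies the response, was counted at 0.797, 0.488 and 0.457 CPM against 4.34, 5.88 and 6.29 CPM (log2 fold change -3.22). The immunoproteasome subunits Psmb8 and Psmb9 fell by 3.50 and 3.72, and Ifi44 fell by 3.62. Ifit2 did not pass the test, with means of 52.8 ± 3.20 and 55.1 ± 2.18 CPM (SD, n = 3 each). In +Cre cells, 2 of the 37 were called lower, and the sums were 425 to 481 CPM with the mutant and 506 to 562 CPM without it.

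Other defence genes gave fewer calls. Of 15 nucleic acid sensors and restriction factors, 6 were called lower and 0 higher (40.0% against 44.7% of all genes, median -0.42). They included Tmem173, which encodes STING and stood at 21.8, 24.0 and 23.7 CPM against 34.7, 34.8 and 37.7 CPM, and Apobec3, with a log2 fold change of -0.66. Trim30a was called at -1.45, at levels below 1 CPM, and the call was lost on leaving out any 1 of 4 libraries. Of 20 chemokines and cytokines, 7 were called lower and 3 higher (median -0.30), and without mutant replicate 1 or parental replicate 2 or 3 the 7 became 4. Cx3cl1, an adhesion chemokine, was counted at 47.6, 39.3 and 47.4 CPM against 139, 159 and 152 CPM, Cxcl16 fell by 2.08 on the log2 scale, and Il33 rose by 1.17.

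Extracellular matrix genes fell together. Of 22 collagens, 15 were called lower and 1 higher (72.7% in all against 44.7% of all genes), with a median log2 fold change of -1.16. Their summed level was 8760, 5105 and 6376 CPM in mutant against 17180, 16290 and 16050 CPM in parental libraries. Col6a3, a chain of the beaded collagen VI, was counted at 36.7, 27.3 and 28.2 CPM against 274, 227 and 206 CPM (log2 fold change -2.94). Col8a2 was counted at 6.12, 4.50 and 5.64 CPM against 79.6, 112 and 101 CPM (log2 fold change -4.17). Col1a1, the main fibrillar collagen chain, was counted at 2262, 787 and 1140 CPM against 4975, 4642 and 4654 CPM. The groups did not overlap, but the mutant libraries were spread widely, and the call (log2 fold change -1.77, edgeR adjusted p = 0.00627) was lost in 6 of 14 alternatives. Col15a1 had no count in any mutant library and 0.134, 0.452 and 0.280 CPM in the parental ones.

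Matrix glycoproteins and proteoglycans were lower in 18 of 26 tested members and higher in 0 (69.2% in all against 44.7% of all genes). Their median log2 fold change was -1.11. Beside Fmod and Prelp, these included Spon2 at -3.93 and Aspn, the proteoglycan asporin, at -3.29. Among 21 matrix proteases and inhibitors, 12 were called lower and 2 higher (66.7% in all, median -0.63), with Adamts4 at -2.49 and Mmp19 at -2.08. Of the fibroblast markers, Pdgfra, Pdgfrb, Fn1, Col1a1, Col1a2 and Col3a1 were called lower and Vim higher. Thy1 was also called higher at levels below 0.4 CPM.

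Among surface peptidases and angiotensin receptors, of 11 tested members 7 were called lower and 0 higher (63.6% in all against 44.7% of all genes, median -1.38). Mme, the peptidase neprilysin, was counted at 17.2, 18.04 and 19.1 CPM against 85.1, 132 and 110 CPM (log2 fold change -2.59). The receptors Agtr2 and Agtr1a were lower by 3.91 and 3.83 on the log2 scale, with Agtr1a having a close paralog in Agtr1b.

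**Figure D3:**
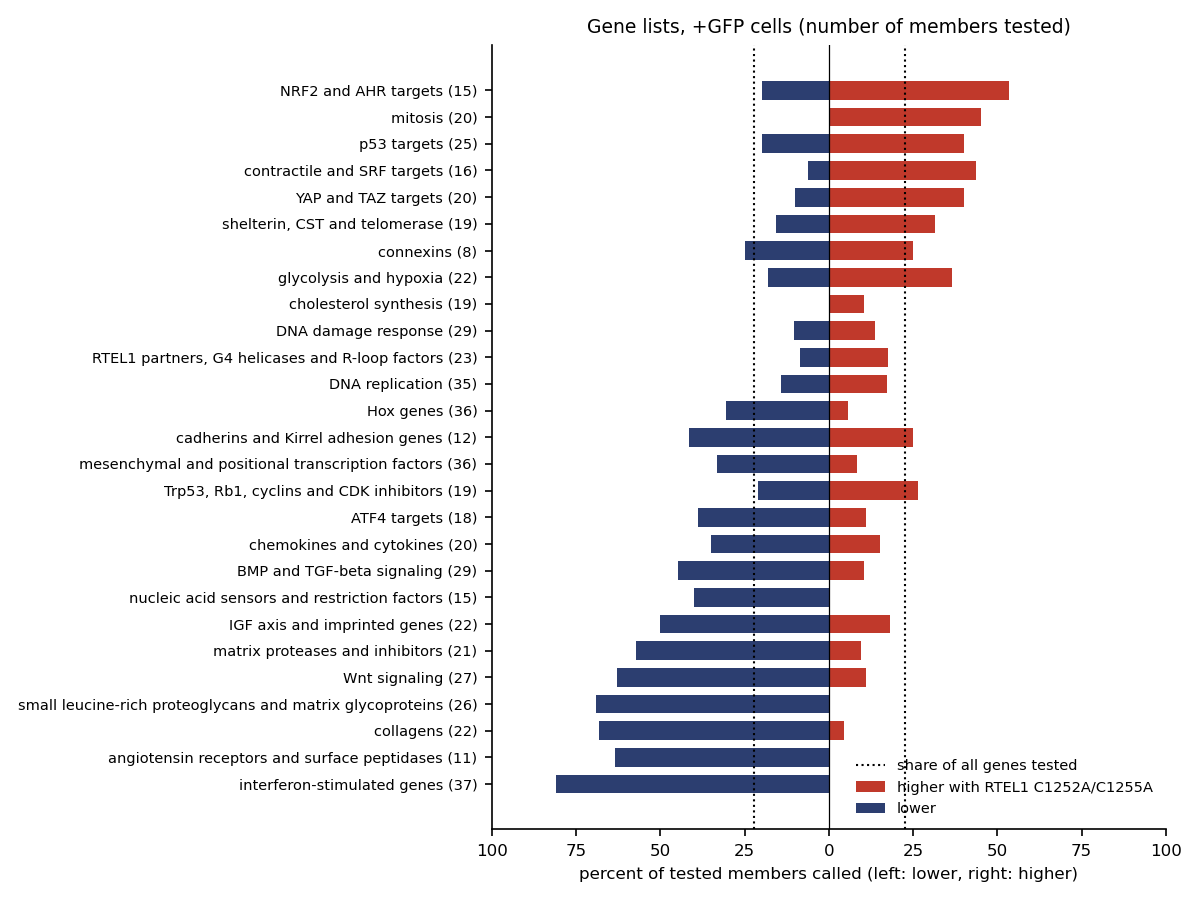
Share of tested members called higher (red, to the right) and lower (blue, to the left) with the mutant in +GFP cells, in percent, for 27 gene lists ordered by median log2 fold change. The number tested is in brackets and dotted lines mark the shares of all genes tested, 22.6% and 22.1%. The interferon, peptidase, collagen and matrix glycoprotein lists extend furthest to the left, and the NRF2, mitosis and contractile lists furthest to the right, followed by the p53 and the YAP and TAZ lists at equal shares.

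Signaling genes changed in ligands and in antagonists. Of 29 BMP and TGF-beta genes, 13 were called lower and 3 higher (55.2% in all against 44.7% of all genes, median -0.37). The 3 higher calls ranged from 2 to 7 over the alternatives, with 6 without parental replicate 1. The ligand Bmp4 was counted at 4.82, 4.02 and 4.04 CPM against 14.2, 23.7 and 23.5 CPM (log2 fold change -2.25, edgeR adjusted p = 3.99e-08), and Id3, a transcriptional target of BMPs, fell by 3.29 on the log2 scale. The BMP antagonists Grem1 and Nog were higher, Nog at 3.38, 3.07 and 2.95 CPM against 0.646, 0.432 and 0.200 CPM (log2 fold change 2.89). Of 27 Wnt genes, 17 were called lower and 3 higher (74.1% in all, median -0.83). The ligand Wnt6 stood at 4.72, 2.60 and 2.83 CPM against 31.7, 41.4 and 43.0 CPM, Nkd1, a feedback inhibitor, fell by 4.91, and Dkk2, a secreted Wnt antagonist, rose from at most 0.0890 CPM to between 2.79 and 4.01 CPM (log2 fold change 5.53). Rspo3 was called at -3.64 on counts so low that the groups overlapped, a call lost in 5 of 12 alternatives.

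In the insulin-like growth factor axis and among imprinted genes, 11 of 22 were called lower and 4 higher (68.2% in all against 44.7% of all genes, median -0.53). Igf1 was counted at 6.33, 6.95 and 6.85 CPM against 62.7, 94.7 and 80.7 CPM (log2 fold change -3.56), and Igf2 at 0.366, 0.244 and 0.183 CPM against 5.12, 10.6 and 9.90 CPM (log2 fold change -4.99). Both growth factors were lower in every mutant library than in any parental one. Igfbp3 was at 0 in every parental library and at 0.0543 to 0.160 CPM in the mutant ones.

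Lists of positional and adhesion genes were read next. Of 36 mesenchymal and positional transcription factors, 12 were called lower and 3 higher (median -0.17), a share of 41.7% against 44.7% of all genes. Prrx2 was counted at 30.9, 16.6 and 28.6 CPM against 57.6, 65.0 and 68.2 CPM (log2 fold change -1.32). Osr2 and Meox1 fell by 2.00 and 1.87 on the log2 scale. Of 36 Hox genes, 11 were called lower and 2 higher (36.1% in all, median -0.15), and the 11 became 7 without mutant replicate 2 or 3 and 5 without parental replicate 2. Hoxc12, Hoxc11, Hoxa6 and Hoxa3 had log2 fold changes of -3.001, -2.22, -1.22 and -0.95. Hoxc12 and Hoxc11 were below 1 CPM, and the calls of Hoxc12, Hoxc11 and Hoxa6 were lost in 5 of 13, 4 of 13 and 2 of 14 alternatives. Of 12 cadherin and Kirrel genes, 5 were called lower and 3 higher (66.7% in all, median -0.16). N-cadherin, Cdh2, was at 175, 169 and 162 CPM against 63.0, 45.4 and 45.2 CPM (log2 fold change 1.72), while Cdh11, the mesenchymal cadherin, was at 100.1, 111 and 105 CPM against 413, 538 and 495 CPM (log2 fold change -2.19). Cdh18 rose by 2.47 and Cdh1 fell by 2.00, both from low levels. Of 8 connexins, 2 were called higher (Gjb2 and Gja1, the latter by 0.67) and 2 lower (among them Gjb5, at -1.22), with a median of 0.06.

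Several genes of the contractile apparatus rose. Of 16 contractile and SRF target genes, 7 were called higher and 1 lower (median 0.22). Tagln, the actin-binding protein SM22, was counted at 542, 576 and 600 CPM against 278, 231 and 251 CPM (log2 fold change 1.18), and Cnn1 rose by 1.08. The member called lower was Des at below 1 CPM, a call lost in 7 alternatives. Of 20 YAP and TAZ targets, 8 were called higher and 2 lower (median 0.11), with Ctgf, a secreted matricellular protein, at 182, 161 and 188 CPM against 70.0, 63.2 and 60.8 CPM (log2 fold change 1.45). The 2 lower calls were 1 without mutant replicate 2 or 3 or parental replicate 1 or 2, 5 without mutant replicate 1, and 7 with GC correction and a replicate block. Nt5e rose by 1.95 and Wwc1 by 1.05.

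Some cell division genes rose a little. Of 20 mitotic genes, 9 were called higher and 0 lower, with a median log2 fold change of 0.27, and Birc5, Aurka, Ccnb1 and Bub1 rose by 0.58, 0.57, 0.51 and 0.47. After correction for GC content 8 were called higher and 3 lower. Of 19 genes for Trp53, Rb1, cyclins and their inhibitors, 5 were called higher and 4 lower (47.4% in all, median -0.22). The G1 cyclins Ccnd2, Ccne1 and Ccnd1 rose by 1.23, 1.09 and 0.89, and the inhibitor Cdkn1b fell by 0.88. Of 35 DNA replication genes, 6 were called higher and 5 lower (31.4% in all, median -0.05), and Rrm2, the small subunit of ribonucleotide reductase, was counted at 130, 170 and 144 CPM against 87.4, 65.9 and 70.4 CPM. Orc6 rose by 0.54 and Lig1 fell by 0.48. Leaving out mutant replicate 2 left 3 replication genes called higher and 2 lower, and leaving out parental replicate 2 left 3 and 1. The count of lower ones was 3 without mutant replicate 1 or 3 and 1 without parental replicate 3.

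Genes of telomere maintenance came next. Of 19 genes of shelterin, CST and telomerase, 6 were called higher and 3 lower (47.4% in all against 44.7% of all genes, median 0.07). The 4 furthest were Naf1, which acts in the assembly of the H/ACA complex, and members of that complex. It stabilises telomerase RNA and ribosomal guide RNAs. Dkc1, its pseudouridine synthase, was counted at 222, 237 and 214 CPM against 136, 92.2 and 95.7 CPM (log2 fold change 1.05), and Naf1, Nhp2 and Nop10 rose by 1.20, 0.98 and 0.86. Gar1, another member of the complex, was also called higher, by 0.81. The 3 called lower were Acd, Ctc1 and Tep1, with log2 fold changes of -0.57, -0.45 and -0.52. Of 23 RTEL1 partners, G-quadruplex helicases and R-loop factors, 4 were called higher and 2 lower (median 0.02), a share of 26.1%. Aqr, Ddx5 and Dhx9, which act on R-loops, rose by 0.61, 0.47 and 0.41, and the nuclease subunit Slx1b fell by 0.55. Its partner Slx4 had a log2 fold change of -0.16 and Rnaseh1, which degrades RNA in R-loops, one of 0.12, and neither passed the test. Poldip3, a direct RTEL1 partner in R-loop control, was called lower by 0.25, and this call was lost in 7 of 14 alternatives.

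DNA damage genes were called in both directions. Of 29 DNA damage response genes, 4 were called higher and 3 lower (24.1% against 44.7% of all genes, median 0.03). Nbn and Hus1 were higher by 0.60 and 0.56, and Mdc1 and Brca2 were lower by 0.51 and 0.50. After correction for GC content 8 were called higher and 7 lower. Of 25 p53 targets, 10 were called higher and 5 lower (60.0% in all, median 0.25). The 5 became 3 without mutant replicate 2 or 3 or parental replicate 3. Eda2r was counted at 14.2, 18.5 and 15.9 CPM against 5.32, 3.76 and 3.61 CPM (log2 fold change 1.94), Perp rose by 1.72 and Plk2 by 1.39, while the death receptor Fas fell by 1.46. The list thus had members far out on both sides.

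Metabolic lists were mixed. Of 15 NRF2 and AHR targets, 8 were called higher and 3 lower (73.3% in all against 44.7% of all genes, median 0.35). The 3 lower ones, Cyp1b1, Gstm1 and Slc7a11, fell by 1.45, 1.18 and 1.15, more than Gclm rose, by 0.62. Of 22 genes of glycolysis and hypoxia, 8 were called higher and 4 lower (54.5% in all against 44.7% of all genes, median 0.05). Eno1 and Pgk1 rose by 0.91 and 0.75, although reads of both can be shared with near-identical copies, and Eno2 and Pdk1 fell by 1.03 and 0.92. Of 18 ATF4 targets, 7 were called lower and 2 higher (median -0.29), with Fgf21, Vldlr and Trib3 lower by 2.32, 1.19 and 1.09 and Atf3 higher by 1.06. Of 19 cholesterol synthesis genes, 2 were called higher and 0 lower (10.5% in all, median 0.04). These were Idi1 by 0.60 and Sc5d by 0.26, calls lost in 3 and 6 of 14 alternatives. The 2 higher calls became 0 without parental replicate 2 or 3, 1 without mutant replicate 2 and 4 without parental replicate 1. The 5 sex-linked markers did not pass the test, although 4 of them had a log2 fold change above 0. Their median was 2.67 in +GFP and 1.83 in +Cre cells, and 0 to 2 were called higher in +GFP cells over the alternatives.

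Genes that the study examined were read here too. How they were chosen is not given in the sources used here, and they are no independent evidence. For Bcl6 the paper lists primers for PCR of immunoprecipitated R-loop DNA, which is a different measure from RNA. Dapk1, a death-associated kinase, was counted at 12.2, 9.55 and 11.97 CPM against 29.6, 39.9 and 35.4 CPM (log2 fold change -1.64). Adam22 was counted at 0.861, 0.651 and 0.708 CPM against 2.63, 3.35 and 2.85 CPM (log2 fold change -1.98). Bcl6, at 18.8 to 21.8 CPM in mutant and 18.9 to 20.9 CPM in parental libraries, overlapped between the groups (log2 fold change 0.03, edgeR adjusted p = 0.743).

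The same step, from cells without to cells with the mutant, was then read in +Cre libraries. None of these enters the +GFP difference itself, but both steps share the filter and the estimate of spread of the fit. There the parental cells have lost RTEL1, so the mutant is the only full-length form. In these libraries 590 genes were called (4.30%), 348 higher (2.54%) and 242 lower (1.76%). Of the 6138 genes called in +GFP cells 408 were also called in +Cre cells, which is 6.65% of the former and 69.2% of the latter, and 349 of the 408 went the same way. The sign of the difference was the same in both steps for 61.3% of all tested genes and for 66.8% of those called in +GFP cells. The median difference in +Cre cells was 0.05 for genes called higher in +GFP cells and -0.07 for genes called lower.

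Among the leading genes, 5 of 12 rises and 4 of 12 falls were called in the same direction in +Cre cells. Crabp1 was counted at 29.5, 27.9 and 27.5 CPM in mutant +Cre and at 7.39, 6.48 and 6.12 CPM in parental +Cre libraries, a difference of 2.09 on the log2 scale. Grem1 differed by 0.68, from 32.1, 27.9 and 28.1 CPM without to 49.98, 44.9 and 46.2 CPM with the mutant. Its level in mutant cells was close with and without Cre, while its parental level was several times higher with Cre. Arap2, Fez1 and Rtel1 were the other rises called, at 1.68, 0.84 and 3.16. The falls called in +Cre cells were Igfbp2, C3, Cd74 and Mmp9, at -4.63, -1.72, -1.23 and -2.11. The call of Cd74 was lost in 7 of 14 alternatives (edgeR adjusted p of at most 0.0266), and those of Grem1 and Fez1 were lost when only the compared groups were fitted.

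The difference between both steps was tested directly, as the log2 fold change in +GFP minus that in +Cre cells. It was called for 3450 genes (25.1%), with 1762 above 0 (12.8%) and 1688 below 0 (12.3%). Of the 6138 genes called in +GFP cells, 3242 were called in this test, and in 3186 of them the +GFP difference was the one further from 0. For the other 2896 genes a difference between the steps was not called. The +GFP values that selected these genes also enter this test, which favours calls with the +GFP difference further from 0. The same holds for the leading genes, of which all 12 rises and 11 of 12 falls were called. For Rtel1 the +Cre step was larger (difference -0.74, edgeR adjusted p = 5.42e-05), and Igfbp2 was the fall not called (difference -3.31, edgeR adjusted p = 0.0704). Adam22 and Mme reversed, with log2 fold changes of -1.98 and -2.59 in +GFP and of 1.23 and 0.86 in +Cre cells. Both +Cre calls were lost when only the compared groups were fitted (edgeR adjusted p = 0.0533 and 0.0172, the highest over 14 alternatives).

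**Figure D4:**
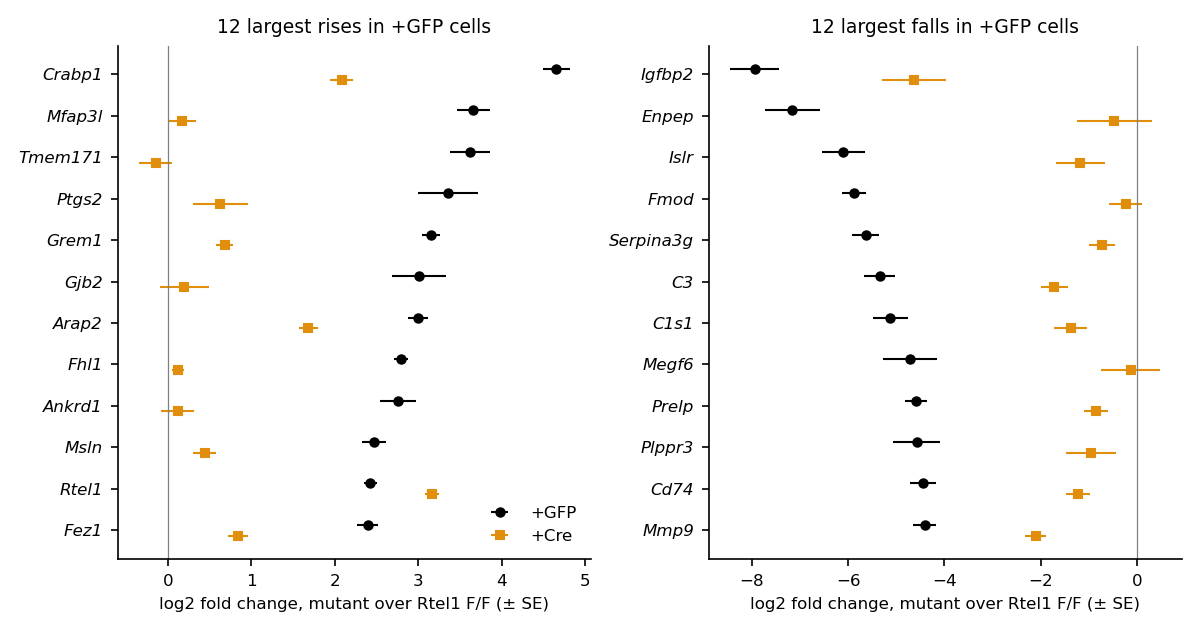
Log2 fold change, mutant over Rtel1 F/F, for the 12 largest rises (left) and the 12 largest falls (right) in +GFP cells, with +GFP values as black circles and +Cre values as orange squares, bars being SE of the fit over 3 libraries a group. The genes were chosen by their +GFP values. Orange points lie closer to 0 for all genes but Rtel1, and Tmem171 is the only one whose signs differ.

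The parental +GFP libraries stood apart from the other 9 libraries of both lines. On the first principal component of the 12 libraries (60.1% of the variance) they lay at 58.8, 80.3 and 76.7, and the mutant +GFP, mutant +Cre and parental +Cre libraries lay between -43.7 and -3.76. Fmod shows the pattern, with 46.7 to 97.6 CPM in parental +GFP, 1.10 to 1.46 CPM in mutant +GFP, and 0.352 to 0.595 CPM in the 6 +Cre libraries. Over the genes called in +GFP cells, the mean of parental +Cre cells was nearer to mutant +GFP than to parental +GFP in 85.6%, and over all tested genes in 75.2%. For Rtel1 F/F cells given GFP virus and the G-quadruplex ligand TMPyP4 (10 µM, 48 hours) these shares were 63.8% and 59.5%, and for Terf1 F/F +GFP cells 42.5% and 45.8%. The parental +GFP libraries enter both distances and the calls, so these shares are descriptions with no test.

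**Figure D5:**
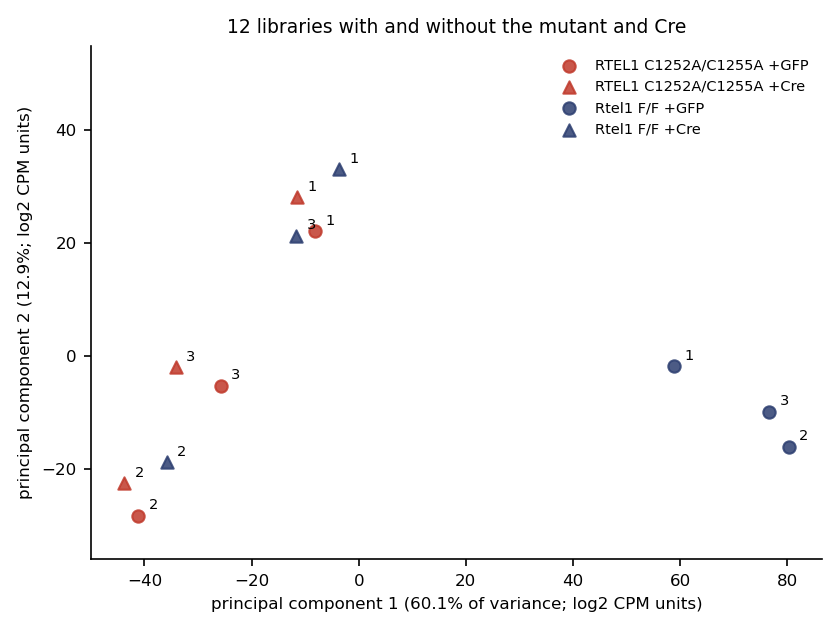
First and second principal components of log2 CPM for 12 libraries, with 60.1% and 12.9% of the variance. Red marks the mutant line and blue Rtel1 F/F cells, circles +GFP and triangles +Cre, and numbers are replicates. The 3 blue circles lie at 58.8 to 80.3 on the first component and all other points below 0.

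The libraries also differed in a way the groups do not explain. Replicates 1 and 2 of mutant +GFP, mutant +Cre and parental +Cre cells deviated from their group means together, with correlations across 11501 genes of 0.777 to 0.887 between libraries of the same number, and for the same numbers the parental +GFP libraries correlated with those 3 groups at -0.0338 to 0.0845. The labels give no batch for any library. A batch that held the parental +GFP libraries alone cannot be told apart from their combination of intact floxed alleles, no mutant and no TMPyP4. Within the parental group replicate 1 was the library nearest to the mutant mean in 74.0% of called genes, against 8.41% for replicate 2 and 17.6% for replicate 3. Without it 5919 genes were called.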

How the data were processed

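RNA of 21 libraries of mouse embryonic fibroblasts was sequenced after poly(A) selection with a strand-specific kit. Per the study's methods and the submitters' processing notes, the authors removed adapters (cutadapt 1.9.1), mapped to mm10 (STAR 2.5.2a) and estimated gene expression with RSEM 1.3.0. The deposited values were RSEM expected counts of 24454 genes, all of them whole numbers as deposited. The authors' TPM values, which the same RSEM run scales by transcript length and library, were used only to describe Rtel1. The study's own tests used DESeq2.

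From the deposited counts, genes that passed filterByExpr (13719) were fitted with edgeR 4.0.16 in R 4.3.3 (TMM scaling, robust quasi-likelihood, 1 coefficient per group over all 21 libraries, 14 residual degrees of freedom, two-sided, Benjamini-Hochberg adjustment over all tested genes). Called means an adjusted p no larger than 0.01. Compared were mutant +GFP minus parental +GFP, the same in +Cre cells, which share no library with it, and the difference of both. Log2 fold changes are fitted values with small prior counts. The script was tested on simulated data. Total counts of 32069888 to 51938593 per library limit precision mainly for genes below 1 CPM, and p-values cover neither vector nor line.

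Genes named in the text were Rtel1, its neighbours within 100 kb, genes the study examines, the 12 largest rises and 12 largest falls at a mean of at least 5 CPM with no overlap, the 4 largest called changes of each list (some are not reported here), and the 4 largest differences between both steps in each direction at a mean of at least 5 CPM over the 12 libraries. Ifit2, Stmn3, Gar1, Acd, Ctc1, Tep1 and the markers of other cell types were named after their values were seen, as were members with no call. All members and 28 lists were chosen with earlier results of these data known. Alternatives were other scaling (DESeq2 size factors), filters and thresholds, DESeq2 1.42.0, the compared groups alone, a replicate block, a GC correction, both together, and leaving out each library. Neighbours and promoters came from RefSeq tables of GRCm38.p6, which matched 23362 symbols directly and 975 by a synonym. GC content was that of the longest GENCODE transcript of each gene.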

Additional observations from a re-analysis of the deposited data

Results flagged for a closer look

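In 8 genes the step from parental to mutant cells differed most between +GFP and +Cre libraries, where the mean over all 12 reached 5 CPM. The test was of the difference itself (log2 fold change in +GFP minus that in +Cre, edgeR quasi-likelihood test, Benjamini-Hochberg adjusted p). Above 0 were Tmem171 at 3.76 (adjusted p = 1.89e-07), Mfap3l at 3.49 (8.5e-08), the unnamed transcript Gm12603 at 3.44 (5.58e-07) and Gjb2 at 2.81 (0.000102). Below 0 were Enpep at -6.68 (adjusted p = 0.000159), Fmod at -5.65 (1.56e-07), Islr at -4.91 (5.34e-05) and Serpina3g at -4.90 (1.89e-07).

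In each of the 8 the +GFP libraries held the large step. Tmem171 was counted at 10.3, 12.4 and 10.9 CPM in mutant +GFP and at 1.45, 0.678 and 0.621 CPM in parental +GFP libraries, while all 6 +Cre libraries lay between 14.9 and 19.95 CPM. Gm12603 was counted at 6.89, 10.96 and 8.13 CPM against 1.34, 0.884 and 0.801 CPM in +GFP cells, and at 7.33 to 12.9 CPM in the +Cre libraries. Enpep, at 10.04 to 47.7 CPM in parental +GFP cells, was below 0.5 CPM in the other 9 libraries. Serpina3g was counted at 54.0, 129 and 118 CPM in parental +GFP libraries and at 1.24 to 2.88 CPM in the other 9. In +Cre cells the log2 fold changes of all 8 genes lay between -1.18 and 0.20, with none past the threshold. Each pattern rests on the parental +GFP libraries, and whether these were prepared apart from the others cannot be told apart from their genotype and treatment.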

How the results depend on the processing

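In +GFP cells the count of 6138 calls stayed within 1.5 times under every alternative but an added fold limit. It was 6441 with DESeq2, 5584 with at least 10 counts in every library, 6842 with GC correction and 4802 when only the 6 libraries were fitted, and 4860 to 6016 without 1 library (higher 2504 to 3119, lower 2356 to 2920). An absolute log2 fold change of at least 1 left 1849 (545 higher, 1304 lower). Of 129 named genes called in +GFP cells, 115 were called under every alternative and 0 called genes reversed. In +Cre cells the 590 calls became 117 with the compared groups alone (60 higher, 57 lower), 1128 with GC correction and block (528, 600), 971 at an adjusted p of 0.05 (536, 435) and 265 with the fold limit (174, 91), and GC correction alone gave 415 lower. Without 1 library they were 388 to 541 (higher 220 to 299, lower 152 to 242), lowest without parental +Cre replicate 3, and higher calls were 230 without mutant +Cre replicate 2 and 225 without parental +Cre replicate 1, while lower calls were 152 without mutant +Cre replicate 3. For the difference of both steps, 3450 became 2195 with the groups alone (1063 above 0), 5306 with GC correction and block (2701, 2605), 5229 at 0.05 (2620 below 0) and 1224 with the fold limit (320, 904). Without 1 library it was 2353 to 3690 (above 0 1077 to 1858, the former without parental +GFP replicate 2, below 0 1276 to 1832). The cause of these shifts was not tested, except that the fold and p limits act by construction and the groups alone give fewer residual degrees of freedom.

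Same-numbered +GFP libraries of both lines deviated from their group means with correlations of 0.0182, 0.036 and 0.127, and for mutant and parental +Cre libraries of 0.777, 0.830 and 0.0648, so the numbers were not taken to pair the samples in either comparison. The test of the difference uses all 4 groups. In it mutant +Cre and mutant +GFP libraries of the same number correlated at 0.887, 0.872 and 0.486 and mutant +GFP and parental +Cre libraries at 0.815, 0.841 and 0.207, all above 0.1, but parental +GFP and parental +Cre libraries at -0.0338, 0.0443 and 0.148 and parental +GFP and mutant +Cre libraries at 0.0301, 0.0845 and 0.165. With a replicate block 7498, 770 and 4667 genes were called in the 3 comparisons.

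Among genes with no call, signs changed as follows. In +GFP cells, Slx4 was 0.0006247 with GC correction and Rnaseh1 -0.007352 with GC correction and block. Actb was 0.006429 with DESeq2 size factors, 0.01656 with GC correction, 0.009673 with GC correction and block and 0.007259 with DESeq2, and -0.14 to 0.0794 without 1 library. Without 1 library Zgpat was -0.10 to 0.24, Bcl6 -0.0003413 to 0.0856 and, in +Cre cells, Megf6 -0.98 to 0.1546. Zgpat was called with GC correction (0.39). Other scalings moved the median of all genes by at most 0.03. Among list members called, higher calls among DNA damage genes went from 4 to 8 and among RTEL1 partners from 4 to 7 with GC correction, lower calls among peptidases from 7 to 4 with at least 10 counts in every library, and lower calls among Trp53, Rb1 and cyclins from 4 to 9 with the block or at 0.05.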

Other observations

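Median log2 fold changes in +GFP cells differed between chromosomes. They ran from -0.25 on chromosome 15 (552 genes) to 0.15 on chromosome 18 (371 genes). On chromosome 15 the medians of the 3 mutant libraries against the parental mean were -0.15, -0.32 and -0.22, all below 0, and the median in +Cre cells was -0.19. Chromosomes 7 and 18 had medians of -0.17 and 0.15 in +GFP cells and of 0.03 and -0.02 in +Cre cells. These medians were not tested, and GC content differs between chromosomes.

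Long genes were called lower more than higher. Of 134 genes that span 500 kb or more, 49 were called lower (36.6%) and 21 higher (15.7%), with a median log2 fold change of -0.20, and their median GC content was 45.9%. The median of the same genes in +Cre cells was 0.02. Of 8322 genes of 10 to 100 kb, 21.5% were called lower and 24.8% higher. The difference between these classes was not tested.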
